A study of Homo sapiens with 4 samples.

Results

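The ABC transporter family was followed in HCT116 cells grown as spheroids and as a monolayer. Its members here were the probe sets of the arrays that carry a single gene symbol beginning with ABCA, ABCB, ABCC, ABCD, ABCE, ABCF or ABCG and ending in a number, without pseudogenes or antisense transcripts. The rule found 92 probe sets of 41 genes, of 19775 genes named on the arrays. It left out 7 probe sets of 4 ABC pseudogenes and 2 probe sets shared with another gene, 1 of them shared by ABCB4 and ABCB1. Of the 41 genes, 28 had a probe set bright enough to be tested, and 13 did not.

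HCT116 is an established line of human colon carcinoma cells. Its wt cells and its wt/GFP cells were each grown as a monolayer, flat on a surface, and as spheroids, rounded aggregates of many cells. Each of these 4 combinations had 1 Affymetrix array, so a condition had 2 arrays from 2 lines and no line had a replicate within a condition. The sources used here do not say how GFP was introduced, whether the wt/GFP cells were 1 clone or how long the cultures grew. No time, drug or other agent is labelled for any group. The values are signals on a linear scale, each array being scaled by its authors to the same trimmed mean.

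ABC proteins carry an ATP-binding cassette, and most use ATP to move a substrate across a membrane. Those of the A and G subfamilies move mainly lipids and sterols, those of the B and C subfamilies include the exporters that remove drugs and their conjugates from cells, and D members serve peroxisomes and lysosomes. E and F members have no membrane-spanning part and act on ribosomes. In the intestine, the exporters ABCB1, ABCG2 and ABCC2 lie on the side of the cell that faces the gut, and ABCC1 and ABCC3 on the side that faces the blood.

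On every array the trimmed mean was 500.1, and the median signal was 48.0 to 48.8 in monolayers and 67.3 to 68.4 in spheroids. For beta-actin, the probe set at the 3' end exceeded that at the 5' end by 1.30-fold to 1.32-fold in monolayers and 1.73-fold to 1.76-fold in spheroids. For GAPDH the same ratio was 0.882 to 0.897 in monolayers and 0.868 to 0.951 in spheroids, so it overlapped. The part of the beta-actin difference in the results was not tested. Control transcripts added before hybridisation gave more signal in spheroids, by 0.40 log2 units for wt and 0.79 for wt/GFP. All 9 intestinal epithelial markers were tested and 6 rose, where 30.6% of all genes tested did. KRT18 (0.14), KRT8 (-0.14) and CDX2 (-0.39) were not called. The rises of EPCAM (0.38) and KRT19 (0.40) were smaller than the mean rise of those control transcripts, 0.59. Summed epithelial signals were 87567 to 106026 in monolayers and 120978 to 121712 in spheroids. Of 5 leukocyte and 4 endothelial markers, 1 each was bright enough to be tested and neither passed. PTPRC, the common leukocyte antigen, and VWF and CDH5 of endothelium were not above the filter. Summed leukocyte signals were 52.4 to 90.9 in monolayers and 39.6 to 110 in spheroids, and endothelial ones 138 to 164 and 247 to 278. Of 6 fibroblast markers, COL1A1 and COL3A1 rose, DCN had a change of -0.04, and COL1A2, PDGFRB and LUM were below the filter. The summed fibroblast signal was 443 to 472 in monolayers and 2434 to 4059 in spheroids, and its part in the results was not tested.

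With the deposited scaling, 12 of the 28 tested ABC genes rose in spheroids, 5 fell and 11 did not pass the test. Called genes thus made up 60.7% of the tested members, where 49.1% of all 14349 genes tested were called. The rises came from 42.9% of the members against 30.6% of all genes, and the falls from 17.9% against 18.5%, so the share of falls lay near the background. The counts of higher and lower members were 8 and 6 after quantile normalization, 6 and 7 with each array centred on its median, and 5 and 6 when arrays were scaled to the hybridisation controls. Over all genes these pairs were 3379 and 3002, 2348 and 4639, and 992 and 3754. A gene is called here when its adjusted p from limma is under 0.05, and a change is the difference of spheroids minus monolayer in log2(signal + 14.0). The 5 members that rose at least 2-fold in each line were ABCC3, ABCA1, ABCC2, ABCG1 and ABCA3, or 5 of 28, against 10.9% of all genes that rose as much in each line. ABCA1 passed the filter only through its spheroid signal, so it could be counted only by being high there, and this count supports nothing about the family. ABCA1 is also among the members that rose in the counts above, under each scaling, so those counts and shares carry the same limit. No member fell at least 2-fold in each line, as 3.83% of all genes did. Without the filter on dim probe sets, 11 of all 41 members rose and 5 fell (39.0%), against 31.0% of 19775 genes.

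**Figure D1:**
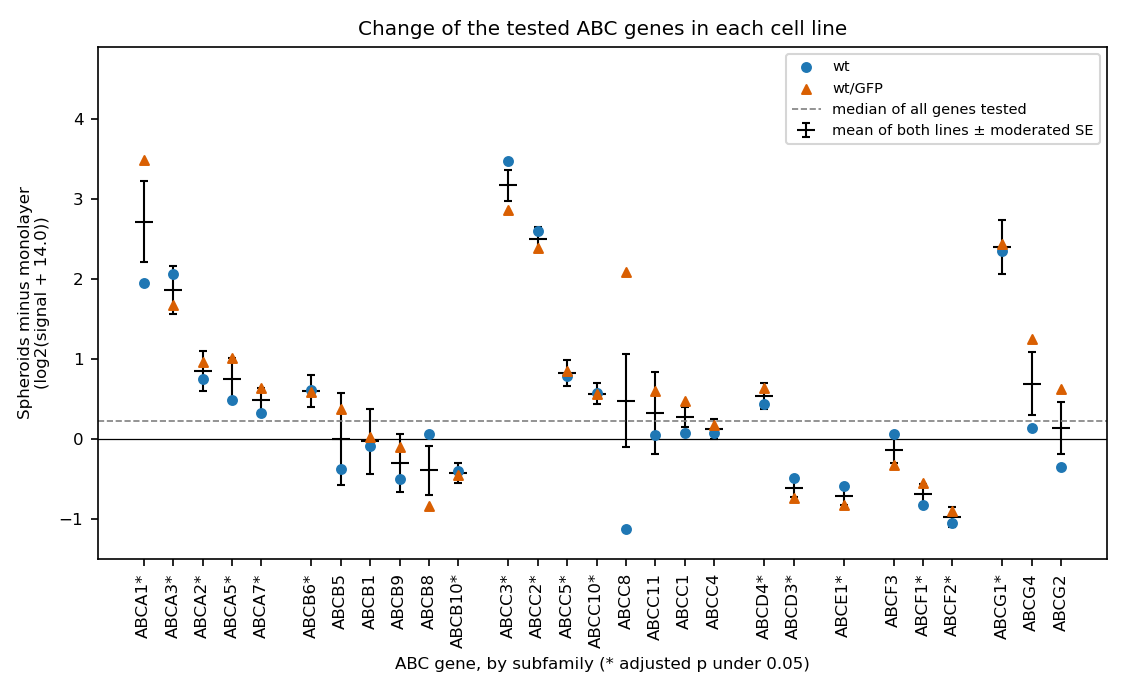
Change of the 28 tested ABC genes from monolayer to spheroids, in log2(signal + 14.0), for wt (circles) and wt/GFP (triangles), with the mean of both lines and its moderated SE as a bar. ABCC3, ABCA1, ABCC2, ABCG1 and ABCA3 lie far above the dashed median of all genes, 0.23, in both lines, and ABCE1, ABCF1, ABCF2, ABCD3 and ABCB10 lie below 0 in both.

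The drug exporters were split between a few that rose and several that gave no call. Of 11 genes on the list, 9 were tested, 4 rose (ABCC3, ABCC2, ABCC5 and ABCC10) and 0 fell, with 5 others not called, where 30.6% of all genes rose and 18.5% fell. ABCC5 did not rise with the mean of its probe sets. The list's median change was 0.32, where that of all genes tested was 0.23. Quantile normalization gave 0.33, median centring -0.071 and the hybridisation-control scaling -0.27, where the medians of all genes were 0.019, -0.17 and -0.37. The turn in sign thus went with a shift of all genes.

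ABCC3, also named MRP3, exports glucuronide conjugates and bile acids. Its signal was 126 and 160 in the monolayers of wt and wt/GFP, and 1534 and 1252 in their spheroids. Both spheroid arrays lay far above both monolayer arrays. The change was 3.17 ± 0.19 SE, or 8.99-fold, with 2 arrays per condition (adjusted p = 1.93e-13). Changes in the lines were 3.47 and 2.87. ABCC2, or MRP2, exports glutathione and glucuronide conjugates. Signals of 240 and 328 in monolayers stood against 1529 and 1770 in spheroids, again without overlap. It rose by 2.49 ± 0.16, or 5.63-fold (adjusted p = 5.10e-13), by 2.60 in wt and 2.38 in wt/GFP. Since arrays were made from whole cultures, a change in how many cells express a gene and a change in its RNA per cell cannot be told apart, here and in all results below.

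ABCC5, an exporter of cyclic nucleotides and nucleotide analogs, had signals of 426 and 518 in monolayers and 743 and 945 in spheroids. Its rise was 0.82 ± 0.16 (adjusted p = 0.000122), and it became 0.22 with the hybridisation-control scaling, without a call. Its direction turned with the mean of its 3 probe sets (-0.12) and without probe sets ending in _x_at or _s_at (-0.18), and 1 probe set alone was called lower. ABCC10, an exporter of amphipathic drugs, had 858 and 1018 in monolayers and 1284 and 1502 in spheroids. It rose by 0.56 ± 0.14 (adjusted p = 0.000958), with 0.57 in wt and 0.55 in wt/GFP, but the value was 0.17 after median centring and -0.027 with the hybridisation-control scaling, and neither was called. For both genes the arrays of the 2 conditions did not overlap.

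ABCB1, the P-glycoprotein that exports many hydrophobic drugs, showed 76.2 and 87.8 in monolayers and 70.9 and 89.1 in spheroids, so the conditions overlapped. The change was -0.03 ± 0.41 (adjusted p = 0.954), and its 95% interval ran from -0.87 to 0.80, which does not show that the level was equal. ABCG2, the breast cancer resistance protein, had 142 and 120 in monolayers and 108 and 191 in spheroids. Its change of 0.13 ± 0.33 (adjusted p = 0.774, interval -0.54 to 0.80) combined -0.36 in wt with 0.61 in wt/GFP, and its sign turned under each of the 3 other scalings. The spread between the lines thus exceeded the change of either gene.

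ABCC1, or MRP1, exports glutathione conjugates and leukotriene. On its other probe set above the filter, signals were 299 and 318 in monolayers and 219 and 248 in spheroids. That change was -0.38 ± 0.22 and was not called, so the direction rests on which probe set is read. Signals on the probe set used for the gene were 2503 and 2389 in monolayers and 2624 and 3331 in spheroids, without overlap. There the change of 0.27 ± 0.12 missed the threshold (adjusted p = 0.0698). It was called after quantile normalization (0.33, adjusted p = 0.0448) and without the wt spheroid array, with 1 array left in that condition (0.44, adjusted p = 0.00675), and was -0.12 when centred on medians and -0.32 with the hybridisation-control scaling. ABCC4, or MRP4, an exporter of cyclic nucleotides and prostaglandins, had 1588 and 1755 in monolayers and 1674 and 1972 in spheroids, which overlap, with a change of 0.12 ± 0.12 (adjusted p = 0.445, interval -0.13 to 0.38). Median centring turned that value to -0.27 and the hybridisation-control scaling to -0.47. ABCC11, another exporter of cyclic nucleotides, had 62.1 and 29.5 in monolayers and 64.5 and 51.8 in spheroids, near the filter and overlapping. Its change of 0.32 ± 0.51 (adjusted p = 0.637) turned sign under all 3 other scalings. ABCC12 was on the arrays but too dim to test, and ABCC6 was not analysed here.

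**Figure D2:**
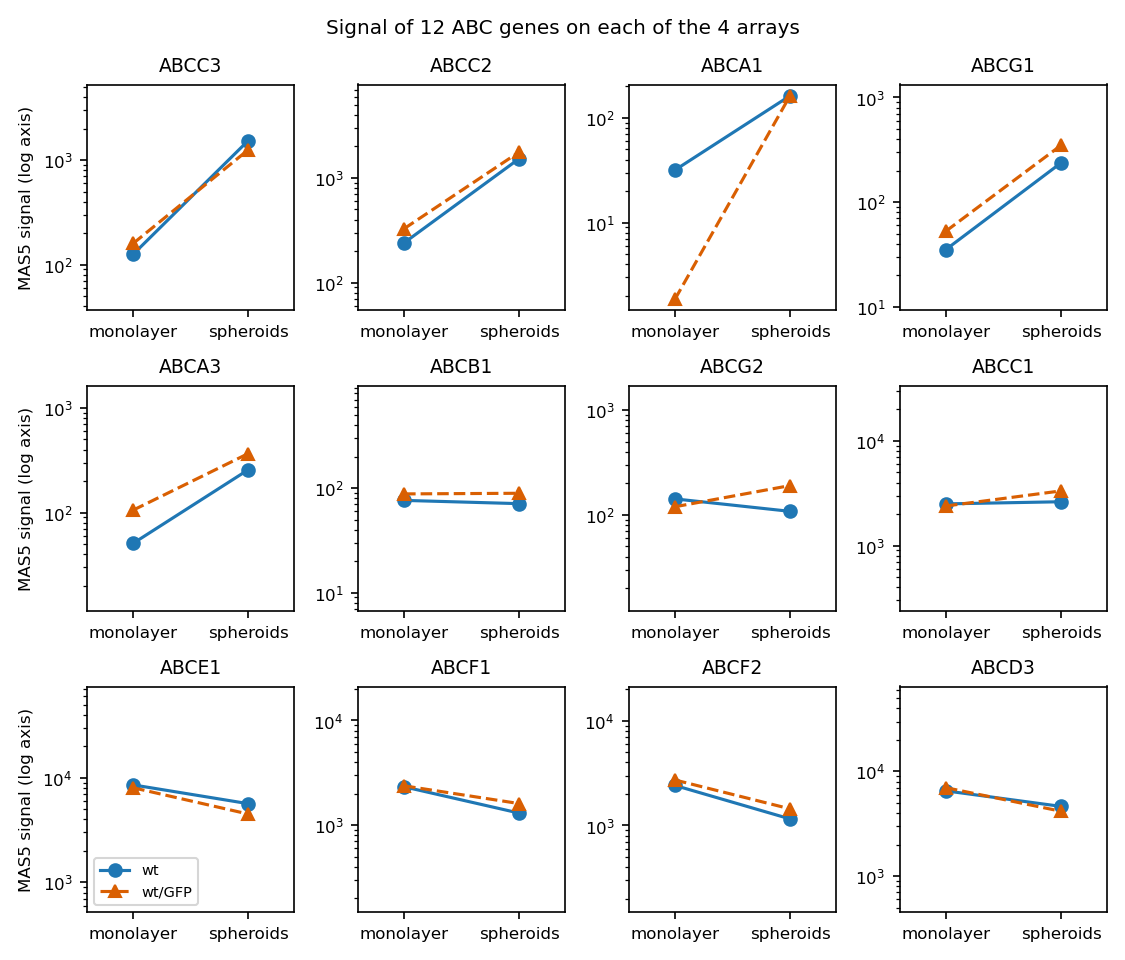
Signal of 12 ABC genes on the 4 arrays, on log axes that span the same ratio in every panel, with a line joining the monolayer and spheroid arrays of wt (circles) and of wt/GFP (triangles). ABCC3, ABCC2, ABCA1, ABCG1 and ABCA3 climb in both lines, ABCB1, ABCG2 and ABCC1 stay within or near the spread of the lines, and ABCE1, ABCF1, ABCF2 and ABCD3 decline in both.

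Lipid exporters rose where they were called. Of 7 sterol and phospholipid exporters, 4 were tested: ABCA1, ABCG1 and ABCA7 rose and ABCG4 did not pass, where 30.6% of all genes rose. The median change was 1.54, or 1.32 above that of all genes. It stayed between 0.95 and 1.18 under the other 3 scalings, where ABCA1 and ABCG1 were called. ABCA1 was tested only through its spheroid signal, so this median of 4 genes depends on a member that could enter only by being high there.

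ABCA1, which loads cholesterol and phospholipid onto apolipoprotein A-I, had signals of 31.7 and 1.85 in monolayers and 163 on each spheroid array. Its rise was 2.72 ± 0.51 (adjusted p = 5.83e-05), with 1.95 in wt and 3.48 in wt/GFP. The monolayer mean lay below the filter, so ABCA1 was tested only through its spheroid signal and the size is uncertain: it was 1.60 with the median signal as pseudocount, and 1.68 without a pseudocount (adjusted p = 0.0390), where its other probe set was the brighter one and was read instead. ABCG1, which passes sterols on to lipoprotein particles, had 35.3 and 52.8 in monolayers and 237 and 349 in spheroids. It rose by 2.40 ± 0.34, or 5.26-fold (adjusted p = 1.10e-06). On the probe set used for the gene, the lines gave nearly the same amount, 2.35 in wt and 2.44 in wt/GFP. With the mean of its probe sets the rise was 1.29. Its monolayer signals lay near the filter, so the size depends on the pseudocount. The rise was 1.77 with the median signal as pseudocount and 2.74 without a pseudocount.

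ABCA7, a phospholipid exporter related to ABCA1, rose only by 0.48 ± 0.15 (adjusted p = 0.00989), from 670 and 728 to 838 and 1142. This value was 0.34, 0.086 and -0.11 under quantile normalization, median centring and the hybridisation-control scaling, without a call. ABCG4, a relative of ABCG1, had 117 and 40.4 in monolayers and 129 and 115 in spheroids. Its change of 0.69 ± 0.39 did not pass (adjusted p = 0.154), and the arrays of its conditions overlapped. It was called without the wt monolayer array, at 1.32 (adjusted p = 0.0260), in a fit where the spheroid pair alone gives the spread, and was 0.056 without the wt/GFP monolayer array.

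Other A members rose as well with the deposited scaling. ABCA3, which fills the lamellar bodies of lung cells with surfactant phospholipid, had 50.8 and 105 in monolayers and 256 and 366 in spheroids. It rose by 1.87 ± 0.30, or 3.64-fold (adjusted p = 7.44e-06), by 2.06 in wt and 1.67 in wt/GFP. ABCA2, an endosomal and lysosomal lipid transporter, rose by 0.85 ± 0.25 (adjusted p = 0.00569), and ABCA5, also lysosomal, by 0.75 ± 0.25 (adjusted p = 0.0160). Both kept a positive value, from 0.16 to 0.47, and no call under the other 3 scalings.

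Promoter windows are printed for the members that rose at least 2-fold in each line, as far as a window was available. These genes were picked by that rise, so their common direction only restates the choice. ABCA1 among them was tested only through its spheroid signal, and shared regulation was not tested. RefSeq windows on GRCh38.p14, from 250 bases before to 50 after a gene's start, were found for 33 of 41 members, 49 windows in all. ABCA1, ABCA3 and ABCC2 had 1 each. The windows were searched on both strands for ACGTG, the core of hypoxia response elements, TGACNNNGC, the core of antioxidant response elements, and AGGTCA, a nuclear receptor site. These motifs were chosen after the changes were seen, and capitals mark their matches. The windows, 5′ to 3′ along the gene, lie at chr9:104928106-104928405 (minus strand, ABCA1), chr16:2340679-2340978 (minus strand, ABCA3) and chr10:99782390-99782689 (plus strand, ABCC2).
ABCA1: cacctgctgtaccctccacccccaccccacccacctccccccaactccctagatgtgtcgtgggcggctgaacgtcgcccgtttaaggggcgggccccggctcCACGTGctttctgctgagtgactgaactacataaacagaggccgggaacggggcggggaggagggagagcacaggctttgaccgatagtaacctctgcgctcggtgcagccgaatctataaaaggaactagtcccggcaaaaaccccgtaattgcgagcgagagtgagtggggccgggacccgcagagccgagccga
ABCA3: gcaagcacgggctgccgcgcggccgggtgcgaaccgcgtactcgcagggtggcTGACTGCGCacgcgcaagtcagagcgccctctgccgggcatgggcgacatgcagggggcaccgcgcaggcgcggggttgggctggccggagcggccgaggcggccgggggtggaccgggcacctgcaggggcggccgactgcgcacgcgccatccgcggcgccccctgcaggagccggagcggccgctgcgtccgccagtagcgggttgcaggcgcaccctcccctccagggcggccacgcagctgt
ABCC2: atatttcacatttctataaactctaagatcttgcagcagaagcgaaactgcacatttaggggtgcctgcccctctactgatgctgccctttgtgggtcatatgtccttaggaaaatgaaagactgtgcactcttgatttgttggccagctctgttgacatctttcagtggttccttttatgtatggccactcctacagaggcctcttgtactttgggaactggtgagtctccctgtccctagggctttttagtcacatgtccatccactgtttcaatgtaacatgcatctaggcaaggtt
The ABCA1 window held ACGTG on both strands, overlapping as a palindrome whose first base lies 147 bases before the start. The ABCA3 window held TGACNNNGC 197 bases before the start. None of the 3 motifs was found in the ABCC2 window, which had 45.0% G and C against 62.7% for ABCA1 and 78.0% for ABCA3. Over all 35116 windows, 21.4% held ACGTG, 13.3% TGACNNNGC and 13.8% AGGTCA. Among the 49 windows of members these were 28.6%, 24.5% and 6.12%. A match is a description of the letters and says nothing of binding.

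Of the 4 ATPases without membrane domains, ABCE1, ABCF1 and ABCF2 fell and ABCF3 did not pass, where 18.5% of all genes fell. ABCE1 and ABCF1 lost their calls when the moderation had no trend (adjusted p = 0.0561 and 0.0607), and ABCF2 with the mean of its probe sets (-0.30, adjusted p = 0.132). Their median change was -0.70, and it lay between -1.30 and -0.62 under the other 3 scalings, with at least these 3 genes called lower in each. Median centring and the hybridisation-control scaling lowered the change of every gene by the same amount, so falls kept there say little of stability. Quantile normalization gave the median of -0.62.

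ABCE1, which splits ribosomes after translation ends, had signals of 8547 and 8025 in monolayers and 5653 and 4500 in spheroids. It fell by 0.71 ± 0.12 (adjusted p = 9.37e-06). ABCF1, which acts in translation initiation, went from 2327 and 2376 to 1304 and 1608, and fell by 0.69 ± 0.13 (adjusted p = 3.81e-05). ABCF2 went from 2413 and 2721 to 1155 and 1442. It fell by 0.98 ± 0.12, or 1.97-fold (adjusted p = 1.73e-07), the deepest fall among the tested members on the probe set used for each gene. With the mean of the probe sets of a gene, ABCD3 fell further, by 1.27. The conditions did not overlap for any of these 3 genes. ABCF3 had 577 and 734 in monolayers and 601 and 581 in spheroids, which overlap, and a change of -0.14 ± 0.17 (adjusted p = 0.528).

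Members of mitochondria, peroxisomes and lysosomes had called rises and falls, all under 1 log2 unit on the probe set used for the gene with the deposited scaling. ABCB10, a mitochondrial transporter of red cell heme synthesis, fell by 0.43 ± 0.12 (adjusted p = 0.00549), from 2043 and 1846 to 1542 and 1346. ABCB6, a porphyrin transporter, rose by 0.59 ± 0.20 (adjusted p = 0.0144), from 279 and 319 to 434 and 483, but its value was 0.31 or less without a call under the other 3 scalings. ABCB8, of the inner mitochondrial membrane, had 161 and 196 in monolayers and 168 and 102 in spheroids. Its change of -0.40 ± 0.31 (adjusted p = 0.307) was called lower under all 3 other scalings, with values of -0.79, -0.79 and -0.99 and adjusted p from 0.0171 to 0.0397. Median centring and the hybridisation-control scaling lower the change of every gene by the same amount. With the deposited scaling ABCB8 had 0.05 in wt and -0.85 in wt/GFP.

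ABCD3, the abundant peroxisomal membrane protein that imports fatty acids, fell by 0.62 ± 0.12 (adjusted p = 6.44e-05), and had -1.27 with the mean of its probe sets. Its signals were 6522 and 6998 in monolayers and 4636 and 4166 in spheroids. ABCD4, which serves lysosomal cobalamin export, rose by 0.54 ± 0.16 (adjusted p = 0.00642), from 583 and 524 to 793 and 822. This rise was not called under the other 3 scalings and was -0.057 with the hybridisation-control scaling. ABCB9, a lysosomal peptide transporter, had a change of -0.31 ± 0.36 (adjusted p = 0.510).

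The last 2 tested members were dim. ABCC8, the sulfonylurea receptor of potassium channels, had 85.0 and 17.9 in monolayers and 31.2 and 121 in spheroids, so it went down in wt and up in wt/GFP (0.48 ± 0.59, adjusted p = 0.532). ABCB5, a transporter of melanoma and limbal stem cells, had signals between 19.9 and 64.4 and a change of -0.0011 ± 0.58, and its conditions overlapped. The 13 untested members were ABCA4, ABCA6, ABCA8, ABCA9, ABCA12, ABCA13, ABCB4, ABCB11, ABCC9, ABCC12, ABCD2, ABCG5 and ABCG8. Their 27 probe sets had signals from 0.433 to 69.6 with a median of 6.63, where the filter lay at 30.6, so no level or change is given for them. They include ABCG5 and ABCG8, which return plant sterols to the gut, and ABCB11, the bile salt export pump.

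By subfamily, 5 of 11 A members were tested and all 5 rose with the deposited scaling, with a median change of 0.85. Their median stayed above 0 under the other 3 scalings, at 0.26 to 0.47, where 2 were called. ABCA1, among the 5 and among these 2, was tested only through its spheroid signal, so it could be counted only by being high there. Of 8 tested C members 4 rose and 0 fell, with a median of 0.52 that became -0.071 with the hybridisation-control scaling. Of 6 B members 1 rose and 1 fell, with a median of -0.17, and 0 rose and 2 fell under each of the other scalings. Over all genes, 30.6% rose and 18.5% fell with the deposited scaling. Genes that rose and fell were 3379 and 3002 of 14351 after quantile normalization and 2348 and 4639 of 14349 after median centring. With the hybridisation-control scaling they were 992 and 3754 of 14349. The 2 tested D members went opposite ways. ABCE1 and 2 of 3 F members fell. Of 3 G members ABCG1 alone rose, and the median of 0.69 was 0.10 to 0.30 under the other scalings. Relative to the median of all genes, the A, C and G medians were 0.62, 0.29 and 0.46 higher, and the B, D, E and F values -0.40, -0.27, -0.94 and -0.92. These are descriptions, as subfamilies were not tested against each other.

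The scaling of the arrays moved many of the smaller calls. Among the 12 genes that rose, 6 were also called higher after quantile normalization and median centring: ABCC3, ABCC2, ABCC5, ABCA1, ABCA3 and ABCG1. Of these, 5 were called with the hybridisation-control scaling as well, ABCC5 being the exception. All 5 genes that fell were called lower under all 4 scalings. These scalings moved the median change of all genes from 0.23 to 0.019, -0.17 and -0.37 in that order. Median centring and the hybridisation-control scaling lowered the change of every gene by the same amount, so kept falls there say little of stability. ABCE1, ABCF1, ABCD3 and ABCB10 lost their calls when the moderation had no trend.

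**Figure D3:**
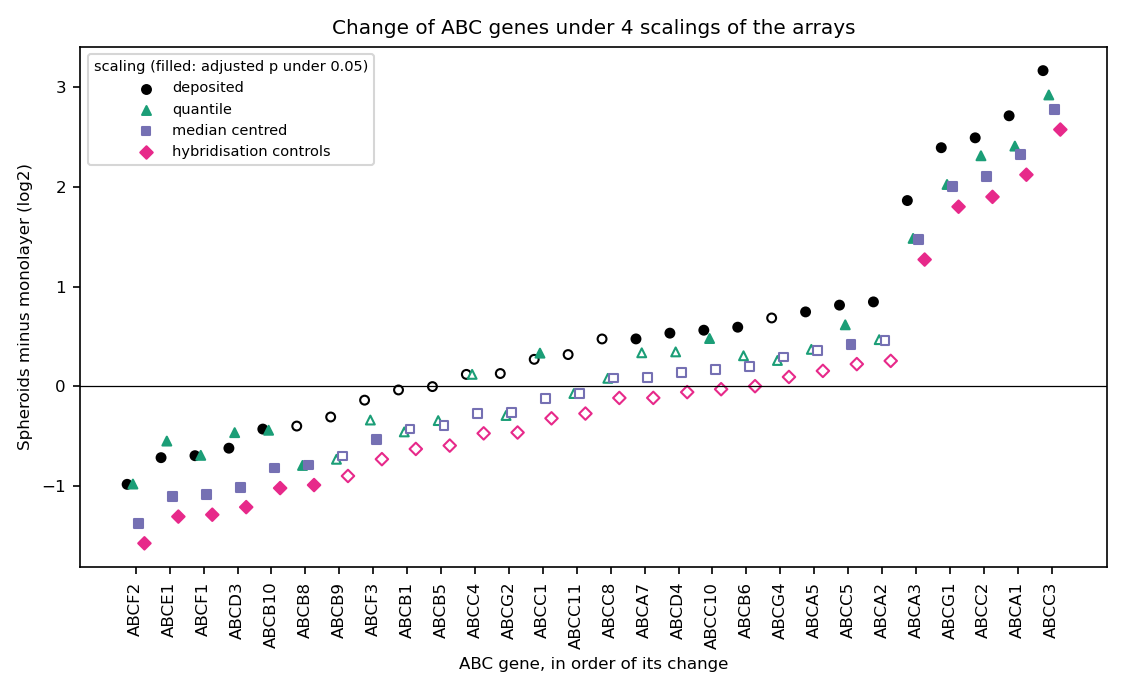
Change of the 28 tested ABC genes (log2) with the deposited scaling, quantile normalization, median centring and the hybridisation-control scaling, where filled points have an adjusted p under 0.05. ABCA3, ABCG1, ABCC2, ABCA1 and ABCC3 are filled above 0 and ABCF2, ABCE1, ABCF1, ABCD3 and ABCB10 below 0 under all 4 scalings, whereas genes between them cross 0 or lose their fill.

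Probe sets of 1 gene did not always agree. Of 49 member probe sets above the filter, tested alone, 18 were called higher, 11 lower and 20 not called. Thus 29 of 49 passed where 40.1% of all 32768 probe sets did. Some of those called, of ABCC3 and ABCA1, passed the filter only through their spheroid signal. Probe sets of 1 gene are also not independent, so this count supports nothing about the family. For ABCC3, 4 of 5 probe sets were called higher, with changes from 1.19 to 3.68, and the fifth was 1.09 ± 0.61, with 1.88 in wt and 0.31 in wt/GFP. Both ABCE1 probe sets fell, by 0.71 and 0.94, and both ABCC10 probe sets rose, by 0.56 and 0.99. The 2 ABCA1 probe sets above the filter rose by 1.30 and 2.72. Their monolayer signals were 25.7 and 29.9, and 31.7 and 1.85, with means below the filter. Both were thus tested only through their spheroid signal, and the 1 does not support the other. ABCD3 fell by 0.62 on the probe set used for the gene and fell by 1.93 ± 0.22 on the other, where signals were 666 and 500 in monolayers and 169 and 118 in spheroids.

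ABCF2 and ABCC5 had probe sets called in opposite directions. Of 5 for ABCF2, 4 fell, by 0.70 to 1.49, and 1 rose by 2.75 ± 0.34, from signals of 43.5 and 25.7 to 321 and 295. For ABCC5, the probe set used for the gene rose by 0.82, another fell by 0.99 ± 0.32 (signals of 184 and 174 against 73.7 and 93.4), and the third was -0.18. ABCC5 was -0.12 with the mean of its probe sets (adjusted p = 0.631), so its direction rests on which one is read. ABCG1 was called on 1 of 3 probe sets above the filter, the others being 0.44 and 1.04. Of these others, the first was -0.29 in wt and 1.18 in wt/GFP, and the second 0.66 and 1.42. A further ABCG1 probe set below the filter had 0.882 and 1.01 in monolayers and 85.8 and 100.2 in spheroids.

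**Figure D4:**
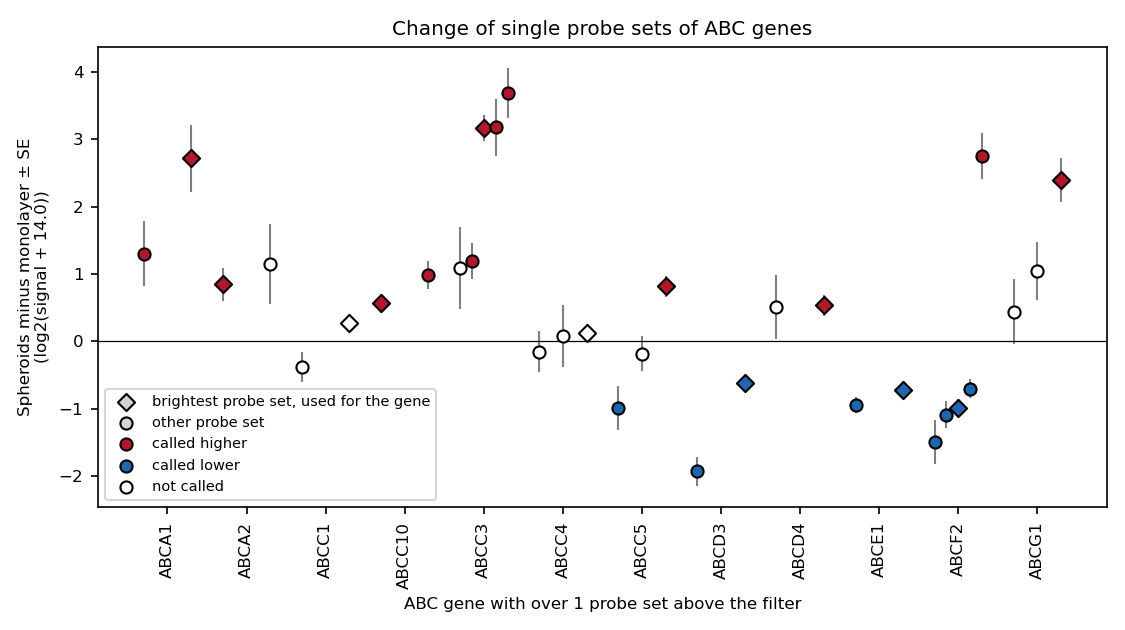
Change of single probe sets (spheroids minus monolayer, log2(signal + 14.0), ± SE) for the ABC genes with over 1 probe set above the filter; diamonds mark the probe set used for the gene, red is called higher, blue lower and white not called. All 5 ABCC3 points lie above 1, ABCF2 has 4 blue points below 0 and 1 red point at 2.75, and ABCC5 has 1 red and 1 blue point. Both ABCA1 points and some of the ABCC3 points passed the filter only through their spheroid signal.

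The changes in wt and in wt/GFP had the same sign for 22 of 28 members, and their Pearson r across these genes was 0.77. Genes are not replicates, and all 28 points share the same 4 arrays and their scaling. None of the 28 members differed between wt/GFP and wt in limma (smallest adjusted p = 0.726), where 4 of 14349 genes did (0.0279%), and 1 had an unadjusted p under 0.05, as did 6.52% of all genes. ABCB5 had the largest size of line difference, 0.84 log2 units. With 1 array per line and condition, a difference between the lines in their response to spheroid culture could not be tested.

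Genes around the family were counted on lists of partners and regulators. Of the ABC genes with other symbols, TAP1, a subunit of the peptide transporter that loads HLA class I, rose by 0.62 ± 0.15, and 1 other was tested and not called. TAP1 lost its call after median centring (0.23) and with the hybridisation-control scaling (0.033). CFTR, the chloride channel, was below the filter.

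Of 14 tested nuclear receptors and factors known to act on transporter genes, 9 rose and 1 fell, where 30.6% and 18.5% of all genes did. EPAS1, the hypoxia-inducible factor 2 alpha subunit, rose by 2.91 ± 0.13, from 758 and 714 to 4833 and 6507. PPARA and PPARG, fatty acid receptors, rose by 2.50 ± 0.23 and 2.07 ± 0.17. The list's median was 0.68, or 0.45 above all genes, and the counts were again 9 and 1 after quantile normalization, while 6 rose and 3 fell after median centring, where 4 rose and 1 fell with the hybridisation-control scaling.

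Carriers that bring drugs and organic ions into cells counted 5 higher and 2 lower of 15 tested, near the 30.6% and 18.5% of all genes, and 2 higher and 2 lower with the hybridisation-control scaling. SLCO4A1, an organic anion carrier, rose by 2.77 ± 0.12, and SLC15A1, a peptide carrier, by 1.77 ± 0.43. SLC19A1, the folate and methotrexate carrier, fell by 1.46 ± 0.13, from 2104 and 2032 to 761 and 728. Among 24 conjugation genes, 10 rose and 5 fell with the deposited scaling, against 30.6% and 18.5% of all genes, but 7 and 5 after quantile normalization, 2 and 10 after median centring and 0 and 8 with the hybridisation-control scaling. PAPSS2, which makes the sulfate donor, rose by 1.36 ± 0.13 and lost its call with the last of these (adjusted p = 0.0724). SULT2B1, a sterol sulfotransferase, rose by 1.26 ± 0.38 and lost its call under all 3 other scalings. GCLM, the modifier subunit of glutathione synthesis, fell by 1.19 ± 0.11.

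Of 19 peroxisomal genes, 7 rose and 2 fell, with a median of 0.16, where 30.6% and 18.5% of all genes rose and fell. Median centring gave 4 and 6 with a median of -0.23, and the hybridisation-control scaling 0 and 3 with -0.43. PEX11A, of peroxisome division, rose by 1.38 in wt and 0.61 in wt/GFP (adjusted p of their mean 0.000928), and ACSL1, an acyl-CoA synthetase, by 0.97 ± 0.15, neither called with the hybridisation-control scaling. PEX3, which inserts peroxisomal membrane proteins, fell by 0.87 ± 0.13. Of 21 genes of mitochondrial heme and iron-sulfur synthesis, 4 rose and 9 fell, against the same shares of all genes. The counts were 4 and 6 after quantile normalization, 4 and 14 after median centring and 1 and 10 with the hybridisation-control scaling. The iron carrier SLC25A37, a partner of ABCB10, rose by 1.26 ± 0.14, without a call with the hybridisation-control scaling (0.67). IBA57 and FDX2, of iron-sulfur cluster assembly, fell by 1.26 ± 0.30 and 1.13 ± 0.17. Of 11 genes of ribosome recycling and rescue, 0 rose and 5 fell, where 18.5% of all genes fell. MCTS1, a recycling factor, fell by 1.22 ± 0.11, EIF6, which keeps ribosomal subunits apart, fell by 1.10 ± 0.12, and ETF1, the release factor that works before ABCE1, fell by 0.85 ± 0.12. The list's median of -0.48 lay between -1.07 and -0.34 under the other scalings. Median centring and the hybridisation-control scaling lower every gene by the same amount, so lower medians there say little of stability.

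**Figure D5:**
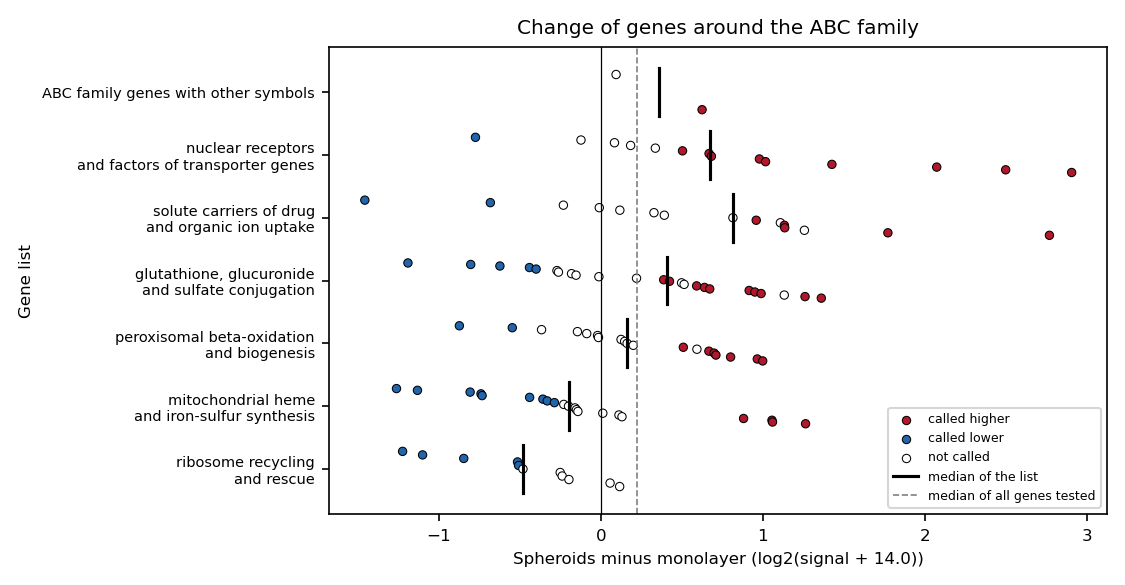
Change of the tested genes of 7 lists around the ABC family (spheroids minus monolayer, log2(signal + 14.0)); red points are called higher, blue lower and white not called, black bars are list medians and the dashed line is the median of all genes, 0.23, with the deposited scaling. The ribosome recycling list has 0 red and 5 blue points, and the list of nuclear receptors and factors 9 red and 1 blue; under median centring and the hybridisation-control scaling the medians of the peroxisomal list and of the ABC genes with other symbols are below 0, and under the latter also that of the conjugation list.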

How the data were processed

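Total RNA from 4 cultures was labelled with biotin and hybridised, per the labels' protocols. The deposited values are intensities on a linear scale, MAS5 signals per the submitters' processing notes, with version and settings not given in the sources used here. Detection calls were not used here. Of 54675 probe sets, 62 controls were left out; 41091 others had 1 symbol in the platform's annotation, 1801 several, and 41037 symbols were updated through gene identifiers.

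Signals became log2(signal + 14.0), the 25th percentile of all values as pseudocount, which understates changes of dim genes. Probe sets whose mean exceeded the 40th percentile (log2 5.48, signal 30.6), 32768 in all, were kept, and each gene took its brightest, giving 14349 genes. limma 3.58.1 in R 4.3.3 fitted culture and cell line over all 4 arrays with a moderation trend, with 1 residual and 25.9 prior degrees of freedom. The SE thus rests mainly on genes of like brightness. P-values are two-sided, Benjamini-Hochberg adjusted over all genes, and measure how far the lines disagree, part of which may be technical. The pairing comes from the labelled cell line. Probe sets were also fitted alone. Other scalings (quantile, median centring, hybridisation controls), pseudocounts, filters, probe set choices, moderation and leaving out arrays were tried.

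Members and lists were chosen with earlier results of these data known, so lists are described by counts and medians without a test. Each tested member is named; up to 3 genes per other list are named, those with the largest called change. The fit was tested on simulated data with independent normal noise, drawn with the fit's own variances. These data held no shift of a whole array and no difference between the lines in their response, so that test says nothing of either.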

Additional observations from a re-analysis of the deposited data

Results flagged for a closer look

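For 6 of the 28 tested members the change from monolayer to spheroids went one way in wt and the other way in wt/GFP, and none of the 6 was called. With 1 array per line and culture, the difference between the lines was not tested. ABCC8 stood out in size: its change was -1.13 in wt and 2.09 in wt/GFP, which differ by 3.22 log2 units, at signals between 17.9 and 121. ABCG2 changed by -0.36 and 0.61, a difference of 0.97, and ABCB5 by -0.38 and 0.37, a difference of 0.75. ABCB8 had 0.05 and -0.85, a difference of -0.90, and ABCF3 0.06 and -0.33, a difference of -0.39. ABCB1 had -0.09 and 0.02, a difference of 0.10.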

How the results depend on the processing

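Of 433 comparisons of a tested ABC gene with an alternative, 357 kept direction and call and 27 turned direction. Of the others, which kept direction, 41 lost the call and 8 gained one. ABCC10, ABCA7 and ABCD4 turned direction and also lost their calls with the hybridisation-control scaling. ABCC5 did so with the mean of its probe sets and without probe sets ending in _x_at or _s_at. Genes called higher (12) and lower (5) were 12 and 5 with no pseudocount, with the median signal as pseudocount, with the filter at the 60th percentile, with robust moderation and with no replicate block. Higher genes were 6 after median centring, 5 after scaling to the hybridisation controls, and 5 (lower: 3) without probe sets ending in _x_at or _s_at, which tests fewer genes and left ABCC3 at 1.09 (adjusted p = 0.169) and ABCG1 at 1.04 (0.0548). Moderation without trend gave 7 higher, 1 lower and 9 of 29 probe sets; ABCE1, ABCF1, ABCD3, ABCB10, ABCC10, ABCA7, ABCD4, ABCB6 and ABCA5 lost their calls at the same fold changes (adjusted p from 0.0561 to 0.121), and the cause was not tested. A 2-fold threshold left 5 and 0. Leaving out 1 array at a time, with no cell line term, gave 8 to 13 higher, 4 to 5 lower and 22 to 28 probe sets; the lone array of a condition is then assumed to vary like the pair of the other, so kept calls say little of stability. ABCC2, ABCC3, ABCC5, ABCA1, ABCA3, ABCG1, ABCD3, ABCE1, ABCF1 and ABCF2 kept their calls in all 4. ABCA7 was 0.26 without the wt/GFP spheroid array, with no call. Calls were also lost without the wt monolayer array (ABCA7, ABCB6, ABCB10, ABCC10), the wt/GFP monolayer array (ABCA5, ABCA7, ABCB10, ABCD4) and the wt/GFP spheroid array (ABCA2, ABCA5, ABCB6). No member was called between the lines in any fit with a line term.

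Directions turned as follows. After quantile normalization ABCG2 was -0.29 and ABCC11 -0.070. After median centring ABCC1 was -0.12, ABCC4 -0.27, ABCG2 -0.26, ABCC11 -0.071 and the drug exporter median -0.071. After scaling to the hybridisation controls ABCC1 was -0.32, ABCC4 -0.47, ABCC10 -0.027, ABCA7 -0.11, ABCD4 -0.057, ABCG2 -0.46, ABCC8 -0.12, ABCC11 -0.27 and the drug exporter median -0.27. ABCB5 was 0.026 with the median signal as pseudocount. Averaging the probe sets of each gene put ABCC1 at -0.056 and ABCC5 -0.12, and ABCC5 was -0.18 without shared probe sets. Leaving out 1 array at a time, ABCB1 ranged from -0.17 to 0.11, ABCB5 from -0.61 to 0.60, ABCF3 from -0.31 to 0.034, ABCC8 from -0.34 to 1.29, ABCC11 from -0.083 to 0.72 and ABCG2 from -0.24 to 0.50. Signals near the filter limit ABCA1, ABCC8, ABCC11 and ABCB5, and in monolayers also ABCG1.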
